A study of Mus musculus with 6 samples.

Results

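The genes of the interleukin 1 (IL-1) axis and of the NLRP3 inflammasome were followed in blood-forming cultures of mouse fetal lung. The 10 genes were taken as a named set, by their place in the pathway and with no threshold on a measured value: the ligands Il1a and Il1b, the antagonist Il1rn, the receptor genes Il1r1, Il1r2 and Il1rap, and the inflammasome genes Nlrp3, Pycard, Casp1 and Gsdmd. They are 10 of the 31053 genes in the count tables, and all 10 had counts and were among the 14912 genes tested. Lungs of wild type C57BL6 fetuses at E17 were digested with liberase, and the cells were frozen and replated on diluted Matrigel, a basement membrane extract. All cultures received HSPC medium (for haematopoietic stem and progenitor cells) with mTPO, IL6, SCF, FGF, VEGF and Flt3. Wells were washed on day 3, and 1 suspension and 1 adherent fraction were collected on each of days 4, 5 and 6, giving 3 suspension and 3 adherent libraries. Suspension cells were taken as they floated. Adherent cells were released with accutase and sorted to enrich live cells carrying VE-cadherin, so that sorting and enzyme treatment cannot be told apart from attachment. Droplet libraries that read the 3′ ends of transcripts were deposited as gene counts of the whole library, without single cells. How many fetuses went into a culture, and whether the days came from separate cultures, is not given in the sources used here, so the p-values measure the spread between these libraries, which includes the days.

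IL-1α and IL-1β are inflammatory cytokines that bind the receptor encoded by Il1r1, which signals once the accessory protein encoded by Il1rap joins it. Il1rn encodes a secreted antagonist that occupies that receptor without signalling, and Il1r2 encodes a decoy receptor that binds IL-1 but lacks the signalling domain. IL-1β is made as an inactive precursor: the sensor NLRP3 assembles with the adaptor ASC (from Pycard) and activates caspase 1 (from Casp1), which cuts the precursor and also cuts gasdermin D (from Gsdmd), whose fragment forms pores in the cell membrane. Myeloid cells are a main source of IL-1β, and stromal and endothelial cells are well known responders to IL-1.

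Gene counts of the 6 libraries summed to between 36451255 and 57784974. Levels are given in CPM, read counts scaled to library size with TMM factors, and 3 counts, the floor used here, correspond to between 0.0594 and 0.0756 CPM. Suspension libraries were rich in blood-cell transcripts. The summed level of 10 neutrophil markers was 25526 to 78312 CPM in suspension libraries and 269 to 1108 CPM in adherent libraries, and all 10 were higher in suspension. Of these, Cxcr2 had no count in the adherent library of day 4. The sum of 10 monocyte and macrophage markers was 18174 to 20284 CPM in suspension and 3016 to 7695 CPM in adherent libraries, with 8 of the 10 higher in suspension. The sum of 10 endothelial markers was 13.3 to 20.4 CPM in suspension and 660 to 1722 CPM in adherent libraries. Fibroblast and pericyte markers summed to 24.1 to 161 CPM in suspension and 2754 to 4105 CPM in adherent libraries, so the sorted fraction also held stromal transcripts. It held epithelial ones as well, with 10 epithelial markers summing to 273, 45.7 and 15.3 CPM in suspension and to 1611, 405 and 1027 CPM in adherent libraries on days 4, 5 and 6. Of these, 6 were lower in suspension, and all 10 with the day as a replicate block; leaving out a library gave 2 (suspension day 5) to 9 (suspension day 4), with 4 without suspension day 6 and 4 without adherent day 4. All 10 endothelial and all 10 stromal markers were lower in suspension. These marker counts are calls of edgeR's test between the fractions, at an adjusted p under 0.05. By that test 27.1% of all tested genes were higher and 29.7% lower in suspension. Cdh5, which encodes the VE-cadherin used for the sort, ran through days 4, 5 and 6 at 0.17, 0.38 and 0.12 CPM in suspension, against 141, 226 and 79.0 CPM in adherent libraries. In whole-library counts, fewer cells of a type and less RNA per cell cannot be told apart, and the part of cell makeup in the results that follow was not tested.

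All 10 genes differed between the fractions. In edgeR's quasi-likelihood fit, with p-values adjusted over all genes after Benjamini and Hochberg, 56.8% of all tested genes were called. Of the 10 genes, 8 were higher in suspension, where 27.1% of all tested genes were, and 2 were lower in suspension (Il1r1 and Il1rap), where 29.7% of all tested genes were. For each of the 10 the 3 suspension values and the 3 adherent values did not overlap, which held for 67.8% of all tested genes (33.4% with suspension above adherent and 34.4% with it below). The median log2 ratio of suspension over adherent was 2.18 over the 10 genes and -0.0025 over all tested genes. In a test against a difference of 2-fold, 4 stayed called as higher (Il1rn, Il1r2, Pycard and Casp1) and 1 as lower (Il1r1), against 25.2% of all genes in either direction. Without the adherent library of day 5 the count of higher genes was 5 of 10, and without the suspension library of day 5 the count of lower genes was 1.

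**Figure D1:**
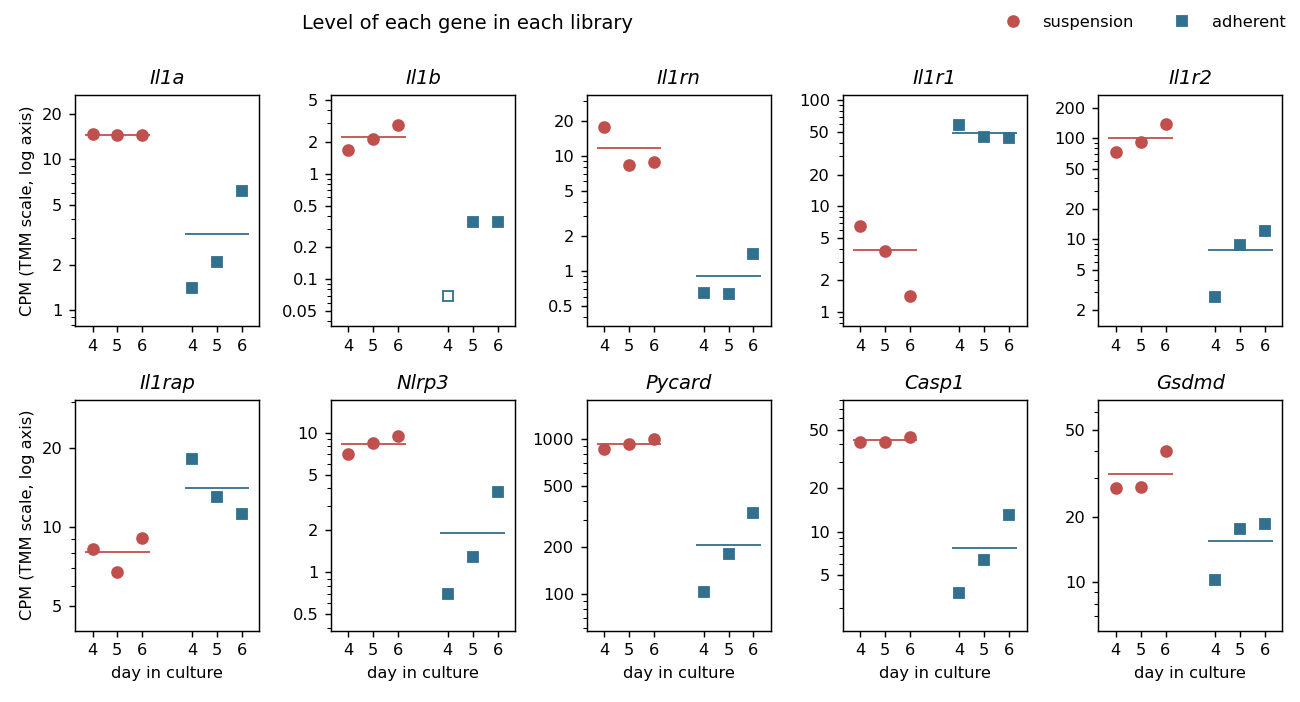
Level of each gene (TMM-scaled CPM, log axis) in suspension and adherent libraries on days 4, 5 and 6 of culture, with 1 point per library and a line at the mean of 3 libraries. The open symbol is the adherent library of day 4 with 0 Il1b counts, drawn at the floor of 3 counts with no mean line for that fraction; Il1r1 and Il1rap are the panels in which suspension lies below adherent.

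Both ligand genes were higher in suspension. Il1a (chromosome 2, 129299610 to 129309972, minus strand, mm10) had levels on days 4, 5 and 6 of 14.9, 14.4 and 14.5 CPM in suspension, against 1.41, 2.09 and 6.15 CPM in adherent libraries. Suspension hardly varied over the days, while the adherent library of day 6 stood above those of days 4 and 5. The means were 14.6 ± 0.229 CPM in suspension and 3.22 ± 2.56 CPM in adherent libraries (SD, n = 3 each), a log2 ratio of 2.18 ± 0.54 (approximate SE) with an adjusted p of 0.0136 by edgeR. Il1b (chromosome 2, 129364570 to 129371139, minus strand) was at 1.70, 2.12 and 2.89 CPM in suspension, from 70, 89 and 146 counts. In adherent libraries it had 0, 14 and 15 counts, which gave 0, 0.353 and 0.349 CPM. The day 4 difference was at least 24.5-fold against the floor of 3 counts, and the ratios of suspension over adherent on days 5 and 6 were 6.01 and 8.27. The fitted log2 ratio was 3.25 ± 0.91 (adjusted p = 0.0220, edgeR). The adherent counts of Il1b are the fewest of the 10 genes, and it is the gene with the widest standard error. Both ligand calls missed the threshold in some fits without a library. The adjusted p of Il1a was 0.0509 without adherent day 5, and that of Il1b was 0.0615, 0.0561 and 0.0568 without suspension day 5, suspension day 6 and adherent day 5 (edgeR).

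Il1rn, the antagonist gene (chromosome 2, 24336853 to 24351494, plus strand), had levels on days 4, 5 and 6 of 17.8, 8.32 and 8.89 CPM in suspension, against 0.646, 0.630 and 1.42 CPM in adherent libraries. The suspension library of day 4 held the highest value, and the lowest suspension value was still above every adherent one. Suspension was 12.9-fold higher by the fit, with a log2 ratio of 3.69 ± 0.48 (adjusted p = 0.00145, edgeR). The ratio of suspension over adherent was 27.6 on day 4, 13.2 on day 5 and 6.26 on day 6. Within a library, the ratio of Il1rn counts to Il1b counts was 10.5, 3.92 and 3.08 in suspension. In adherent libraries it had no value on day 4, where 28 Il1rn counts stood against 0 Il1b counts, and was 1.79 and 4.07 on days 5 and 6. The ratios of the fractions overlapped (log2 difference of suspension minus adherent -0.56 with 0.5 added to each count, exact two-sided permutation p = 0.8, adjusted 0.8 over 3 ratios). The sign of that difference turned without adherent day 4, where it was 0.92.

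The receptor genes divided by fraction. Il1r1, the signalling receptor (chromosome 1, 40225080 to 40317257, plus strand), was at 6.47, 3.79 and 1.43 CPM in suspension and at 58.4, 45.1 and 44.1 CPM in adherent libraries. Suspension averaged 3.89 ± 2.52 CPM and adherent 49.2 ± 7.98 CPM (SD, n = 3 each), a log2 ratio of -3.66 ± 0.53 (adjusted p = 0.00192, edgeR). The adherent level was 9.03, 11.9 and 30.9 times the suspension level on days 4, 5 and 6. Il1r2, the decoy receptor, lies beside it on chromosome 1 (40074079 to 40125231, plus strand) and showed the opposite order. It was at 72.5, 92.5 and 137 CPM in suspension and at 2.70, 8.79 and 12.0 CPM in adherent libraries. Its log2 ratio was 3.68 ± 0.57 (adjusted p = 0.00251, edgeR), and its lowest suspension value was well above its highest adherent value.

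The count ratio of Il1r2 to Il1r1 set these neighbours against each other within each library. It was 11.2, 24.4 and 96.2 in suspension on days 4, 5 and 6, and 0.0462, 0.195 and 0.273 in adherent libraries. The lowest suspension ratio thus stood above the highest adherent one. On the log2 scale the ratio averaged 4.89 ± 1.57 in suspension and -2.89 ± 1.36 in adherent libraries (SD, n = 3 each), a difference of 7.78. The exact two-sided permutation p was 0.1, the smallest that 3 against 3 libraries allow, and 0.3 when adjusted over 3 ratios. Counts of 3′ reads in different genes depend on how well each 3′ end is captured, so the ratio is compared only between libraries.

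Il1rap, the accessory protein gene (chromosome 16, 26581704 to 26730117, plus strand), differed less. It was at 8.26, 6.79 and 9.07 CPM in suspension and at 18.2, 13.0 and 11.3 CPM in adherent libraries. Adherent day 6 lay closest to the suspension values. The log2 ratio was -0.82 ± 0.22 (adjusted p = 0.0188, edgeR), and the adjusted p was 0.0724 without suspension day 5.

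**Figure D2:**
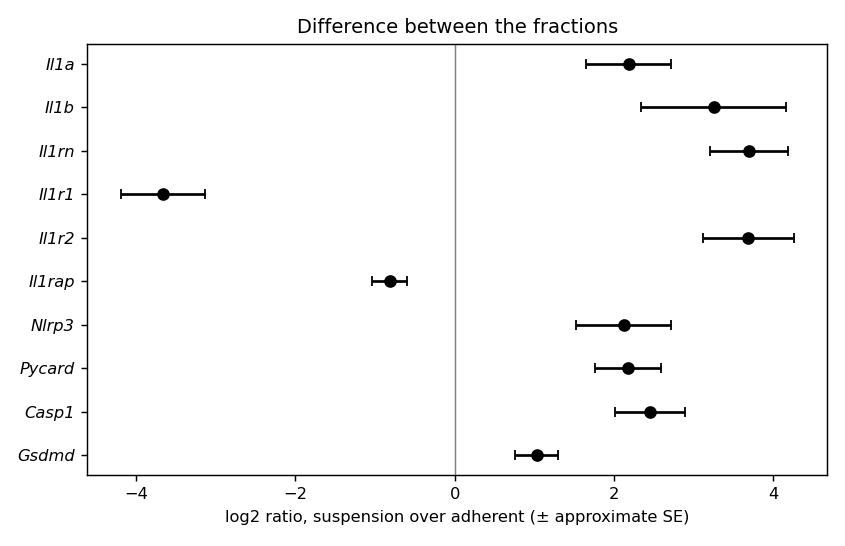
Log2 ratio of suspension over adherent for each gene from edgeR's fit of 6 libraries, with approximate standard errors as bars. The value is positive for 8 genes, highest for Il1rn at 3.69, and negative for Il1r1 at -3.66 and Il1rap at -0.82.

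Reads on the opposite strand were a larger part of the signal at the neighbouring receptor genes than at most of the 10. For Il1r2 the antisense share of sense plus antisense reads was 9.57%, 17.2% and 24.9% in suspension on days 4, 5 and 6, and 4.10%, 6.18% and 6.01% in adherent libraries. Over all genes this share was 6.51% to 7.30% in suspension and 6.24% to 6.65% in adherent libraries. The annotated gene Gm16894 lies antisense to Il1r2 and had 58, 62 and 110 counts of its own in suspension, and 0, 15 and 13 in adherent libraries. For Il1rn the antisense share was 3.91%, 8.16% and 13.7% in suspension and 0%, 7.41% and 10.3% in adherent libraries, and for Il1r1 it was 11.0% to 14.3% in suspension and 8.80% to 11.8% in adherent libraries. The fraction calls of the 10 genes were the same with reads of either strand (8 higher and 2 lower).

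The stretches of 250 bases upstream of the starts of both ligand genes and of the oppositely ordered receptor genes are shown because these pairs lie near each other in the genome. They come from RefSeq on GRCm38.p6, the assembly that mm10 names, and 9 of the 10 genes matched that table. Each reads 5′ to 3′ along the strand of its gene, so that the last base is the one before the start. Capitals mark matches, on either strand, to motifs of transcription factors: C/EBP as TTNNGNAAT, PU.1 as GAGGAA, AP-1 as TGANTCA, and the NF-κB motif.
Il1a, chr2:129309973-129310222, minus strand: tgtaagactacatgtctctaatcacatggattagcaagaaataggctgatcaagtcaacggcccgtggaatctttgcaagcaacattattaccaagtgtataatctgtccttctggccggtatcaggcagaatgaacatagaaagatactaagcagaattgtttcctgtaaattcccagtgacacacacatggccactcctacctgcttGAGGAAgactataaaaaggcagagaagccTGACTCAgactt
Il1b, chr2:129371140-129371389, minus strand: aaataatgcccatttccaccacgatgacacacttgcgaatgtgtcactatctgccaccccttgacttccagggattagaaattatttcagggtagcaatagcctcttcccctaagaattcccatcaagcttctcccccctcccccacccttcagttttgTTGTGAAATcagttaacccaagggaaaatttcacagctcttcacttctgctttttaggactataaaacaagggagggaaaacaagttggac
Il1r1 first start, chr1:40224830-40225079, plus strand: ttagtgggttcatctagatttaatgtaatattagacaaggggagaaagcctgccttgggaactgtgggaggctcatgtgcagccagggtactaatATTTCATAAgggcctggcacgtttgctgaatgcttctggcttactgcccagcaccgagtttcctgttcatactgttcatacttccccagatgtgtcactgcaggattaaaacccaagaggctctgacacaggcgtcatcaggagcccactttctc
Il1r1 second start, chr1:40266336-40266585, plus strand: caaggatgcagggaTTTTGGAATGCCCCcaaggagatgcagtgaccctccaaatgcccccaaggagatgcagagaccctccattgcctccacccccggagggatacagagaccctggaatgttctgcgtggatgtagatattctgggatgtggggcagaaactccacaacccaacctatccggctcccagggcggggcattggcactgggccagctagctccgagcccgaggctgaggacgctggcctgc
Il1r2, chr1:40085843-40086092, plus strand: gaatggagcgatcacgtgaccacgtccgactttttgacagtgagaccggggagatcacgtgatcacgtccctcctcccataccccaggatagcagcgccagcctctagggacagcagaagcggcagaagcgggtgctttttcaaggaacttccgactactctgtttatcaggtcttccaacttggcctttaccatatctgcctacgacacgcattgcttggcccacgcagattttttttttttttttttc
In the Il1a stretch a PU.1 match begins at position -41 and an AP-1 match at position -12, with -1 the base before the start. The Il1b stretch holds a C/EBP match at -91. The first start of Il1r1 has a C/EBP match at -155, and the second start has overlapping C/EBP and NF-κB matches that begin at -236 and -232. None of the 4 motifs was found in the Il1r2 stretch. The Il1r2 start used here is not a transcript start in GENCODE M21, unlike those shown for Il1a, Il1b and Il1r1. Bases upstream of the annotated Il1r2 gene, which begins at 40074079, were not searched. Among the other genes, Pycard and Casp1 had a PU.1 match each, and the starts of Nlrp3 had 3 PU.1 matches and 1 NF-κB match between them. One Il1rn start held an AP-1 match and another a C/EBP match, and the Il1rap stretch held none of the motifs. The Il1rn starts, the Il1rap start and the Nlrp3 start with the NF-κB match are likewise not transcript starts in GENCODE M21. Bases just after that Nlrp3 start matched no GENCODE transcript of the gene. Of 32851 promoter stretches of 250 bases, 23.3% held PU.1, 10.2% C/EBP, 7.25% NF-κB and 6.75% AP-1 matches. A match is a run of letters and not a measured binding site.

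The inflammasome genes were higher in suspension. Nlrp3, the sensor (chromosome 11, 59541568 to 59566956, plus strand), was at 7.05, 8.51 and 9.48 CPM in suspension and at 0.692, 1.28 and 3.77 CPM in adherent libraries. Its log2 ratio was 2.12 ± 0.60 (adjusted p = 0.0228, edgeR). As with Il1a, the adherent library of day 6 was the nearest to the suspension values. The adjusted p of Nlrp3 was 0.0601, 0.0527 and 0.0801 without suspension day 5, suspension day 6 and adherent day 5 (edgeR).

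Pycard, which encodes the adaptor ASC (chromosome 7, 127989708 to 127993867, minus strand), was at 855, 933 and 1001 CPM in suspension and at 103, 181 and 334 CPM in adherent libraries. Its log2 ratio was 2.17 ± 0.41 (adjusted p = 0.00520, edgeR). Casp1, the protease (chromosome 9, 5298517 to 5307265, plus strand), was at 41.2, 41.2 and 44.6 CPM in suspension and at 3.76, 6.37 and 13.1 CPM in adherent libraries. Suspension values of Casp1 lay close together, and each adherent value was above the one of the day before. Its log2 ratio was 2.45 ± 0.44 (adjusted p = 0.00406, edgeR), 5.46-fold higher in suspension.

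Gsdmd, the pore-forming substrate (chromosome 15, 75862327 to 75867408, plus strand), had the smallest difference of the 8 genes that were higher. It was at 26.9, 27.4 and 40.0 CPM in suspension and at 10.3, 17.5 and 18.5 CPM in adherent libraries, a log2 ratio of 1.03 ± 0.27 (adjusted p = 0.0176, edgeR). Suspension day 6 was above the other suspension days. The ratio of suspension over adherent was 2.61, 1.57 and 2.16 on days 4, 5 and 6.

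The same genes were also set against Ptprc, which encodes CD45, a surface protein of most blood cells. Ptprc itself was at 166, 199 and 249 CPM in suspension and at 12.5, 20.1 and 38.4 CPM in adherent libraries. Per 1000 Ptprc counts, Il1a had 89.6, 72.6 and 58.3 counts in suspension and 113, 104 and 160 in adherent libraries, and so was below adherent in all 3 suspension libraries. Pycard had 5152, 4692 and 4022 per 1000 Ptprc counts in suspension and 8236, 8998 and 8696 in adherent libraries. Casp1 had 248, 207 and 179 in suspension and 301, 317 and 341 in adherent libraries, and Nlrp3 had 42.5, 42.8 and 38.1 in suspension and 55.4, 63.8 and 98.2 in adherent libraries. Against Ptprc the order of the fractions was thus the opposite of that in CPM for these genes, which depends on the blood-cell transcript chosen. Ptprc differed more between the fractions than these genes did, so the reversal follows from dividing by it. Which cells of the adherent libraries held the counts was not tested. Per 1000 counts of the 10 macrophage markers, Casp1 had 2.07, 2.27 and 2.20 counts in suspension and 1.25, 1.66 and 1.70 in adherent libraries, the order of its CPM. Nlrp3 had 0.354, 0.468 and 0.468 in suspension and 0.229, 0.335 and 0.490 in adherent libraries, so the fractions overlapped. Per Ptprc, the log2 differences of suspension minus adherent were -0.77 for Il1a, -0.79 for Nlrp3, -0.91 for Pycard and -0.61 for Casp1. Gsdmd had 162, 138 and 161 per 1000 Ptprc counts in suspension and 823, 869 and 483 in adherent libraries, a log2 difference of -2.20.

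Il1b, Il1rn and Il1r2 did not show that reversal with separate groups. Il1r2 had 437, 465 and 551 counts per 1000 Ptprc counts in suspension and 216, 437 and 313 in adherent libraries, so suspension day 4 and adherent day 5 were level. Il1b had 10.2, 10.7 and 11.6 in suspension and 0, 17.5 and 9.10 in adherent libraries. Il1rn had 108, 41.8 and 35.7 in suspension and 51.7, 31.3 and 37.0 in adherent libraries. With 0.5 added to each count, their log2 differences were 0.64 (Il1r2), 1.01 (Il1b) and 0.46 (Il1rn), with exact permutation p-values of 0.2, 0.7 and 0.6. The value of Il1b leans on the 0 counts of adherent day 4, as its means per 1000 Ptprc counts were 10.8 in suspension and 8.87 in adherent libraries. The difference of Il1b was -0.26 without adherent day 4, and that of Il1rn was -0.037 without suspension day 4. For the other 7 genes, Il1r1 at -7.14 and Il1rap at -4.04 included, the exact two-sided permutation p was 0.1. That is the smallest possible, and it was 0.143 when adjusted over the 10 genes. Ptprc was itself higher in suspension, so a gene level between the fractions in CPM also falls below adherent here. Rela and Map3k7, not called between the fractions, were at -3.32 and -3.41 with the same p of 0.1 by that permutation test. The share of all genes with such a separation was not computed.

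**Figure D3:**
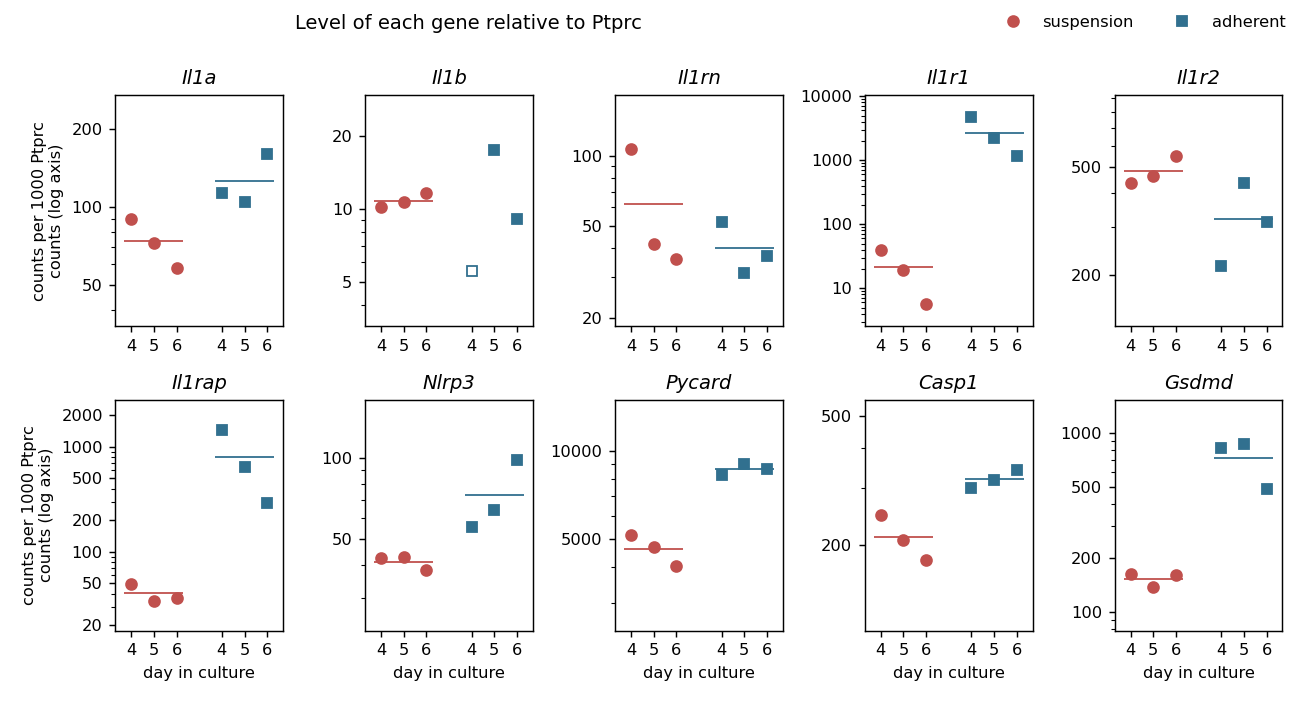
Counts of each gene per 1000 Ptprc counts (log axis) in suspension and adherent libraries on days 4, 5 and 6, with 1 point per library and lines at the mean. The open symbol stands for 0 Il1b counts, drawn as 3 counts, with no mean line for that fraction; Il1a, Nlrp3, Pycard, Casp1 and Gsdmd lie lower in suspension than in adherent libraries.

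Over the days, 5 of the genes rose in the adherent fraction. The slope per day within the adherent fraction was called as rising for 5 of the 10 genes and as falling for none, where 7.75% of all tested genes were called as rising and 3.52% as falling (edgeR, adjusted over all genes). The slopes were 1.25 ± 0.16 for Nlrp3, 1.09 ± 0.15 for Il1a, 1.04 ± 0.18 for Il1r2, 0.91 ± 0.08 for Casp1 and 0.85 ± 0.06 for Pycard, in log2 units per day. Their adjusted p-values were 0.0156, 0.0188, 0.0296, 0.0097 and 0.0095 (edgeR). The median slope was 0.88 over the 10 genes and 0.05 over all tested genes. Ptprc had a slope of 0.81 in the same libraries (adjusted p = 0.0097, edgeR), and 7 of 10 macrophage markers and 4 of 10 neutrophil markers were called as rising, while 4 of 10 epithelial markers were called as falling. Gsdmd (0.42, adjusted p = 0.0975), Il1rn (0.60, adjusted p = 0.204), Il1b (1.43, adjusted p = 0.25), Il1r1 (-0.20, adjusted p = 0.225) and Il1rap (-0.35, adjusted p = 0.128) did not pass in edgeR's test. Slopes rest on 3 days with 1 library each and 2 residual degrees of freedom. The count of rising genes was 2 without any single suspension library, 3 without adherent day 4, 7 without adherent day 5 and 1 without adherent day 6. Fits without a library have still fewer residual degrees of freedom, and those without a suspension library keep every adherent library. A changed count there does not measure the adherent levels alone.

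In suspension, Il1r1 was the gene whose slope was called. It fell by 1.06 ± 0.12 log2 units per day (adjusted p = 0.0470, edgeR), where 0.496% of all tested genes were called in either direction, 0.402% as falling and 0.0939% as rising. The 267, 159 and 72 counts of days 4, 5 and 6 show the fall, which ran beside that of the stromal marker sum, at 161, 73.7 and 24.1 CPM, and of the epithelial marker sum, at 273, 45.7 and 15.3 CPM. The call was lost without suspension day 4 (adjusted p = 0.181) and without suspension day 6 (adjusted p = 0.862, edgeR). Il1r2, with a suspension slope of 0.46 ± 0.15, did not pass (adjusted p = 0.235, edgeR) but was called in each fit that left out an adherent library. In each of those fits 8 of 10 neutrophil markers were also called as rising, against 1 in the full fit. A slope common to both fractions was called for none of the 10 genes by edgeR. At an unadjusted p under 0.05 there were 4 rising (Il1r2, Pycard, Nlrp3 and Gsdmd) and 1 falling (Il1r1), where 3036 of all 14912 tested genes had such a p. DESeq2 called 2, Il1r2 and Gsdmd. It also called far more of all tested genes for this slope than edgeR did. Among its calls, 5 of 10 neutrophil markers were rising and 7 of 10 epithelial markers falling. After adjustment edgeR called 0.0134% of all genes for this common slope.

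The slopes of the fractions differed by the test for Pycard. Its slope was 0.11 ± 0.06 in suspension and 0.85 ± 0.06 in adherent libraries, a difference of -0.73 ± 0.08 log2 units per day (adjusted p = 0.0485, edgeR), where 0.516% of all tested genes were called by the same test, 0.463% with a lower and 0.0536% with a higher slope in suspension. The call was lost in 5 of 6 fits without a library, with adjusted p-values of 0.268, 0.102 and 0.700 without suspension days 4, 5 and 6, and of 0.0965 and 0.111 without adherent days 4 and 6 (edgeR). It was also lost with reads of either strand (adjusted p = 0.0504, edgeR). Without adherent day 5 there were 6 such genes. That fit also called 5 of 10 macrophage, 6 of 10 epithelial and 0 of 10 endothelial markers with a lower slope in suspension. The full fit called 0 in each of these lists, so its share of 0.516% does not apply to the fit without adherent day 5. The difference was -1.11 for Il1a, -1.03 for Nlrp3, -0.86 for Il1r1 and -0.85 for Casp1, with adjusted p-values of 0.0856, 0.0954, 0.0829 and 0.0520 (edgeR).

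**Figure D4:**
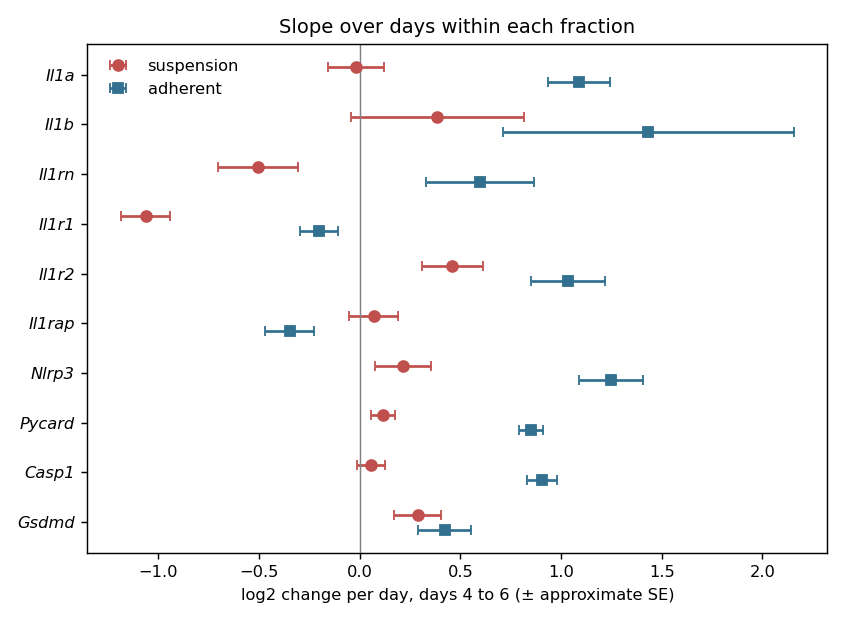
Slope per day of culture (log2 units, days 4 to 6) of each gene in suspension and in adherent libraries, with approximate standard errors as bars. Adherent slopes of Il1a, Il1r2, Nlrp3, Pycard and Casp1 lie at 0.85 to 1.25 and were called as rising, and the suspension slope of Il1r1 at -1.06 was called as falling.

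Other genes of the pathway were counted from lists. Of 15 further IL-1 family ligands and receptors, 9 were tested, of which 4 were higher and 1 lower in suspension, with a median log2 ratio of 1.33. These are few genes, and of all tested genes 27.1% were higher and 29.7% lower. Il18, another cytokine that caspase 1 activates, was at 241, 216 and 185 CPM in suspension and at 10.8, 21.9 and 49.2 CPM in adherent libraries (log2 ratio 2.97, adjusted p = 0.00445, edgeR). Il18rap, a subunit of its receptor, was at 13.4, 15.6 and 24.6 CPM in suspension and at 1.20, 1.66 and 0.932 CPM in adherent libraries. Il33, an alarmin of stromal, endothelial and epithelial cells, was at 2.11, 1.29 and 0.139 CPM in suspension and at 11.0, 10.7 and 16.0 CPM in adherent libraries (log2 ratio -3.42, adjusted p = 0.0111, edgeR). The adherent marker sums and Il33 were thus high in the same fraction. The count of lower family members was 2 without suspension day 5 and 2 without adherent day 4.

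Of 15 genes that carry or restrain the signal from the receptor to NF-κB, all were tested. In suspension 10 were higher and none lower, with a median log2 ratio of 0.56, where 27.1% of all tested genes were higher and 29.7% lower. Irak1, a kinase that acts just after the receptor, was at 50.5, 57.9 and 52.7 CPM in suspension and at 36.2, 34.7 and 37.9 CPM in adherent libraries (log2 ratio 0.57, adjusted p = 0.00348, edgeR). Nfkb1, which encodes an NF-κB subunit, was at 45.6, 48.5 and 45.9 CPM in suspension and at 28.0, 31.2 and 35.9 CPM in adherent libraries. These differences were small beside those of the 10 genes. In the test against 2-fold, which 25.2% of all tested genes passed, 1 of the 15 passed. That gene, named after its values were seen, was Irak3, which restrains the signal, at 19.3, 20.1 and 23.9 CPM in suspension and at 3.58, 5.36 and 8.18 CPM in adherent libraries.

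Of 21 other inflammasome genes, 19 were tested, 15 were higher and none lower in suspension, with a median log2 ratio of 2.53. Over all tested genes 27.1% were higher and 29.7% lower. Casp8, a protease that can also cut the IL-1β precursor, was at 102, 104 and 103 CPM in suspension and at 47.0, 41.7 and 43.7 CPM in adherent libraries (log2 ratio 1.22, adjusted p = 4.0e-04, edgeR). Pstpip1, an adaptor that binds pyrin, was at 78.7, 85.3 and 102 CPM in suspension and at 9.83, 13.4 and 21.0 CPM in adherent libraries. The list holds Naip and Nlrp1 paralogs of similar sequence, whose shared reads the counting could have split. With a filter of 10 CPM in 3 libraries, 11 of the list were tested, 7 were higher and 1 was lower.

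Of 6 other proteases known to cut IL-1 precursors, 5 were higher in suspension, where 27.1% of all tested genes were. The median log2 ratio was 4.91. Without adherent day 5 the count of higher proteases was 3. Prtn3, a neutrophil granule protease, was at 1038, 1317 and 771 CPM in suspension and at 5.84, 56.0 and 59.4 CPM in adherent libraries. Ctsg, another granule protease, was at 501, 666 and 256 CPM in suspension and at 0.0923, 17.2 and 15.7 CPM in adherent libraries (log2 ratio 5.43, adjusted p = 0.0168, edgeR). The adherent library of day 4 was far below those of days 5 and 6 for both.

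Of 25 genes that IL-1 is known to induce, 23 were tested, 6 were higher and 8 lower in suspension, with a median log2 ratio of -0.0080. These counts are near the shares over all tested genes, 27.1% higher and 29.7% lower. Lcn2, an iron-binding protein of neutrophil granules, was at 1201, 1619 and 3584 CPM in suspension and at 46.2, 56.9 and 74.3 CPM in adherent libraries, and the chemokine gene Ccl3 was at 228, 192 and 256 CPM in suspension and at 78.6, 88.4 and 145 CPM in adherent libraries. Nfkbiz, a nuclear regulator of NF-κB, was at 18.8, 17.3 and 17.5 CPM in suspension and at 43.4, 68.2 and 78.9 CPM in adherent libraries (log2 ratio -1.83, adjusted p = 0.00120, edgeR). Vcam1, an adhesion molecule of endothelium and stroma, was at 6.64, 7.43 and 5.27 CPM in suspension and at 45.1, 53.8 and 70.7 CPM in adherent libraries (log2 ratio -3.13, adjusted p = 3.9e-04, edgeR). Under the test against 2-fold, 2 of the response genes were higher and 4 lower, where 25.2% of all tested genes passed in either direction.

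**Figure D5:**
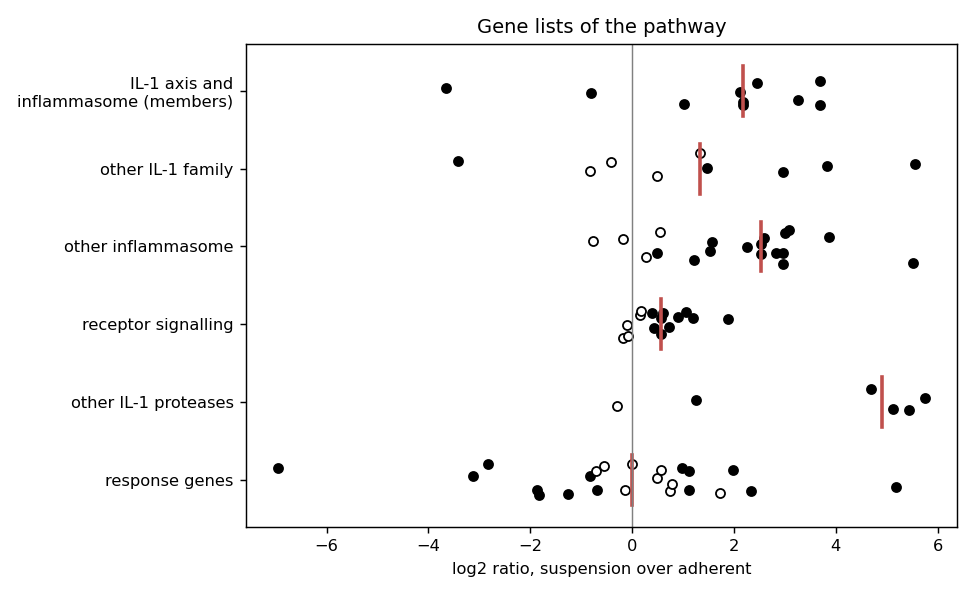
Log2 ratio of suspension over adherent for each tested gene of the 10-gene set and of the pathway lists, with filled symbols for genes with an adjusted p under 0.05 and a bar at each median. The medians run from -0.0080 for response genes to 4.91 for the proteases, beside -0.0025 over all tested genes.

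Genes with the most similar profile to each of the 10 were found among 5906 candidates as those with the smallest root mean square (RMS) difference of centred log2 CPM over the 6 libraries. The closest profiles belonged to Casp1, whose nearest were Lilr4b (RMS difference 0.035), Tyrobp (0.063) and Cd53 (0.086), the last a tetraspanin of leukocytes. Those of Pycard were Mndal (0.062), Ccl6 (0.066) and Cd53 (0.090). Nlrp3 and Il1a shared Pld4 as the nearest (0.15 for both), followed by Gda and Cd300a for Nlrp3 and by Fabp4 and Arl11 for Il1a. Gsdmd was nearest to Lmo2 (0.084), Mpp1 and Plod1, and Il1rap to Myadm (0.083), Myl12a and Tsen15. Il1r2 was nearest to Traf3ip3 (0.13), Coro1a and Fgr, and the profiles close to that of Il1r1 included Rhobtb3 (0.24) and Amotl1 (0.28). Il1b was nearest to Mmp8, a neutrophil collagenase (0.22), then Samsn1 and Srgn. Il1rn had no close neighbour, with Atp6v0d2 at 0.39, Hvcn1 at 0.43 and Coro2a at 0.43. These likenesses over 6 libraries describe levels, and the 6 points share the difference between the fractions.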

How the data were processed

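Droplet libraries (10x 3′ v3) were made from suspension and sorted adherent cells on days 4, 5 and 6. Per the submitters' processing notes, bcl2fastq, Cell Ranger and STARsolo were used with mm10. The sources used here give neither their versions nor the annotation. What the authors deposited are whole-library read counts per gene for either strand, sense and antisense; their 4 summary lines were left out of totals. Counts are not corrected for molecular identifiers and have no cell axis. The floor of 3 counts covers counting error only, while standard errors and p-values rest on the spread between libraries. Reads outside features were 16.7% to 16.8% in suspension and 23.4% to 24.2% in adherent libraries. The sense column, which had the larger total in every library, was used. GENCODE M21 gave symbols for 30934 of 31053 identifiers, and where 28 symbols were shared, the identifier with the most counts kept the symbol.

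Tests used edgeR 4.0.16 with limma 3.58.1 in R 4.3.3: filterByExpr left 14912 of 22019 genes with counts, TMM scaling and the quasi-likelihood test followed, and Benjamini-Hochberg adjustment over all genes was applied at a threshold of 0.05. Suspension was tested over adherent with 4 residual degrees of freedom, a common slope with 3 and a slope per fraction with 2. Standard errors are approximate, the absolute log2 value over the square root of F. The script was tested on simulated data. Alternatives were reads of either strand, DESeq2 1.42.0 size factors and Wald test, other filters, thinned counts, a test against 2-fold, the 50 most abundant genes left out, a replicate block and each library left out.

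Both fractions of a day share the day of culture in the labels. Across genes, departures of libraries from their fraction's mean correlated at 0.329, 0.112 and 0.265 for the same day. For different days they correlated at -0.295 to 0.0205 (genes are not independent replicates). Departures were centred within each fraction, so these values cannot tell a pairing of libraries from a course over days that both fractions share. The genes and lists were chosen with earlier results of these data known. The 10 genes were always named; from each pathway list the 2 called genes with the highest mean CPM in each direction, and for each of the 10 genes the 3 nearest profiles among genes of at least 20 CPM, of which 1 is not reported here. Profiles used log2(CPM + 0.1).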

Additional observations from a re-analysis of the deposited data

Results flagged for a closer look

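Pycard was singled out because its slopes in the fractions differed by the interaction test. The difference of suspension minus adherent was -0.73 ± 0.08 log2 units per day (adjusted p = 0.0485, edgeR), with suspension at 855, 933 and 1001 CPM and adherent at 103, 181 and 334 CPM on days 4, 5 and 6. The call was lost in 5 of 6 fits without a library and with reads of either strand (adjusted p = 0.0504, edgeR). Ptprc differed in the same direction by -0.52 (adjusted p = 0.0796, edgeR).

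The same test singled out Il18, at -1.28 ± 0.08 (adjusted p = 0.0485, edgeR), whose suspension levels were 241, 216 and 185 CPM and whose adherent levels were 10.8, 21.9 and 49.2 CPM. It also singled out Gsdme, a further pore-forming gasdermin gene, at -0.82 ± 0.09 (adjusted p = 0.0485, edgeR), with 15.6, 18.8 and 22.5 CPM in suspension and 12.5, 28.2 and 56.4 CPM in adherent libraries. In each fit without a suspension library, 0 of the IL-1 family genes listed with Il18 were called by this test. Of the list that holds Gsdme, 0 were called in each fit without a suspension library or without adherent day 4. Gsdme was lower in the adherent library of day 4 than in suspension and higher on days 5 and 6. Its antisense share was 28.4%, 27.1% and 20.2% in suspension and 35.0%, 35.4% and 33.3% in adherent libraries, above the share over all genes.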

How the results depend on the processing

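The fraction calls of the 10 genes, 8 higher and 2 lower, were the same with reads of either strand, DESeq2 size factors or Wald test, no filter, thinned counts, the 50 most abundant genes left out and the replicate block by day, which gave 8 and 2 and changed no call of the 10 genes. With that block, IL-1 family genes were 5 higher and 1 lower, other inflammasome genes 16 higher, response genes 8 higher and 7 lower, and macrophage markers 10 higher; counts of the signalling and protease lists were as without it. With at least 10 CPM in 3 libraries, 7 of the 10 were tested, 5 called as higher and 2 as lower, and 5106 genes were called in all against 8467. Against 2-fold, 4 were higher and 1 lower, and 3759 genes were called. Leaving out each library gave 5 to 8 higher and 1 to 2 lower.

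Slopes rest on 1 library per day and moved most, and fits without a library have fewer residual degrees of freedom. Across all genes the common slope called 2, and 1457 with DESeq2, 66 without a filter, 6 with thinned counts and 0 to 13 without 1 library; DESeq2 called 2 of the 10 genes as rising. The suspension slope called 74, and 786 with DESeq2, 809 without a filter and 0 to 544 without 1 library; of the 10 genes, 0 to 1 rose and 0 to 1 fell without 1 library, and 0 fell with thinned counts. The adherent slope called 1681, and 2646 without a filter and 288 to 2902 without 1 library, with 1 to 7 of the 10 genes rising. The slope difference called 77, and 1021 with DESeq2, 1006 without a filter and 0 to 859 without 1 library. For it, 0 of the 10 genes were called with either strand, 5 with DESeq2, 5 without a filter, 2 at 10 CPM and 0 to 6 without 1 library. The causes were not tested.

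With the summed macrophage and neutrophil markers in place of Ptprc, the log2 differences were -1.10 for Il1a, -1.12 for Nlrp3, -1.24 for Pycard and -0.94 for Casp1. Neutrophil markers were the larger part of that sum in suspension, and macrophage markers in adherent libraries. Against the macrophage markers alone, Casp1 kept the order of its CPM, and the fractions overlapped for Il1a, Nlrp3 and Pycard. Some uncalled values turned sign without 1 library, with causes not tested, and are given as ranges. For Il1rn the common slope was -0.45 to 0.43 (0.13 without suspension day 6, and 0.0024 with either strand), the suspension slope reached 0.055 without suspension day 4, and the adherent slope was -0.036 to 1.17. For Il1rap the common slope was -0.37 to 0.014 and the suspension slope -0.28 to 0.38. For Il1b the adherent slope was -0.013 without adherent day 4 and 6.94 without adherent day 6, and the slope difference 0.40 and -6.56. The slope difference of Gsdmd was -0.48 to 0.20 (0.12 without suspension day 4), and that of Il1r2 was 0.0078 without adherent day 4. The log2 difference of the Il1rn to Il1b ratio was -1.59 to 0.92, that of Il1b per Ptprc -0.26 to 1.89 and that of Il1rn per Ptprc -0.037 to 0.76. Depth limits Il1b most, with 0 to 15 counts in adherent libraries.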

Other observations

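Against the summed counts of the 10 monocyte and macrophage markers, Pycard was nearly level between the fractions. It had 42.9, 51.4 and 49.4 counts per 1000 marker counts in suspension on days 4, 5 and 6, and 34.1, 47.2 and 43.4 in adherent libraries, so the values overlapped. Per 1000 neutrophil marker counts it had 33.5, 28.4 and 12.8 counts in suspension and 384, 214 and 301 in adherent libraries, which did not overlap. Il1a had 0.746, 0.795 and 0.716 counts per 1000 macrophage marker counts in suspension and 0.467, 0.545 and 0.799 in adherent libraries. Il1r1 had 40.2, 51.4 and 59.2 counts per 1000 fibroblast and pericyte marker counts in suspension and 14.2, 16.4 and 15.2 in adherent libraries, the opposite order of its CPM. Those markers differed more between the fractions than Il1r1 did (median log2 ratio -5.21 against -3.66), so this order follows from dividing by them. Per 1000 endothelial marker counts Il1r1 had 317, 233 and 107 in suspension and 67.2, 26.2 and 66.7 in adherent libraries. Per 1000 epithelial marker counts it had 23.7, 82.9 and 93.4 in suspension and 36.2, 111 and 42.9 in adherent libraries, which overlapped. These levels were chosen after the values were seen and were not tested.

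Mast cell and basophil markers, a further set of 10, had sums on days 4, 5 and 6 of 284, 384 and 397 CPM in suspension, against 32.3, 146 and 268 CPM in adherent libraries. In the adherent library of day 4, 7 of the 10 had no count. Il1rl1, the IL-33 receptor gene carried by mast cells, was at 8.28, 11.7 and 10.5 CPM in suspension and at 1.78, 2.29 and 8.04 CPM in adherent libraries. Its fraction difference did not pass (adjusted p = 0.0915, edgeR), and its adherent slope of 1.12 log2 units per day did (adjusted p = 0.0355, edgeR).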
